A study of Mus musculus with 74 samples.

Results

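The molecular chaperones of the HSP, DNAJ and CCT families were followed through the differentiation of mouse T helper (Th) cells. Members were chosen by gene symbol alone: Tcp1, and every symbol that starts with Hspa, Hspb, Hspd, Hspe, Hsph, Dnaja, Dnajb or Dnajc, or with Hsp or Cct and a digit. This rule gave 78 genes of the 19031 that the array annotation names by 1 symbol, and 69 of the 78 were among the 13817 genes called expressed, which means that at least 1 condition had a mean above the median of all values on the table (6.77 on the log2 scale). The expressed members were 42 cytosolic, 12 endoplasmic reticulum (ER), 10 mitochondrial and 3 nuclear chaperones and 2 of other places. The other 9 members, Cct8l1, Dnajb7, Dnajb14, Hspa1l, Hspa12b, Hspa14, Hspb3, Hspb9 and Hspb11, stayed at or below that level in every condition and were not tested.

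Chaperones bind proteins that are not yet folded, or have lost their fold, and keep them from clumping. HSP70 proteins bind and release short stretches of a chain in a cycle driven by ATP, which DNAJ proteins (HSP40) start and HSP110 proteins help to end. The CCT ring, a chamber of different subunits, folds actin and tubulin in the cytosol, HSP60 with its lid HSP10 does the same for proteins brought into mitochondria, and HSP90 matures kinases and hormone receptors. A resting T cell that meets antigen becomes a large dividing blast within about a day, a step that asks for the making and folding of much new protein.

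The starting cells came from Balb/c mice 5 to 8 weeks old, whose spleens and lymph nodes were pooled before CD4+ CD62L-high (naive) T cells were purified. Anti-CD3 on the plate and anti-CD28 in the medium activated them. Th1 cultures also received IL-12 and anti-IL-4. Th2 cultures received IL-4, anti-IL-12 and anti-IFN-γ. The Th1/2 hybrid cultures, labelled ThMix, received IL-12 and IL-4 together, and Th0 cultures received antibodies against IL-12, IFN-γ and IL-4. Each culture was sampled after 3, 6, 12, 24, 35, 48, 73, 96 and 120 h, and the naive cells at 0 h, in 2 independent experiments with 1 array each. This gave 74 arrays in 37 conditions. The windows below are early (3 to 12 h, 24 arrays), blast (24 to 35 h, 16 arrays) and late (48 to 120 h, 32 arrays), and 2 arrays hold the naive cells. All levels are log2 of normalized fluorescence intensity, so that a difference of 1 is 2-fold, and levels of different genes are not set against each other because each probe has its own brightness.

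The T-cell receptor genes Cd3e, Cd3d and Cd3g lay between 13.1 and 15.1 in every condition and Cd4 between 8.20 and 9.63, while Cd8a stayed at or below 6.63. The probe for Cd8b1 read between 11.3 and 12.5, and its specificity could not be checked here. Some markers of other cells had a higher mean at 0 h than in the late window: Hba-a1 of red cells (11.9 and 6.71), Lyz2 (9.75 and 6.29), Csf1r (8.31 and 6.81) and Cd14 (7.39 and 6.44) of myeloid cells, and Cd79b (9.60 and 7.95) and Ms4a1 (7.13 and 6.67) of B cells. Itgam (6.43 and 6.45), Ncr1 (6.27 and 6.34) and Klrb1c (6.97 and 6.98) did not fall. The part of these cells in the differences from 0 h was not tested. In bulk RNA, fewer cells of a type and less RNA per cell cannot be told apart. Set against the mean of the other cultures at the same time, Th0 at 96 h replicate 2 departed furthest, with 775 genes at least 2-fold off, followed by Th1/2 at 12 h replicate 1 with 349 and Th2 at 96 h replicate 1 with 333. The members off by that much were Dnajb6 on the first, Cct5 and Dnajc11 on the second, and Hspa1a, Hspa1b and Hspbp1 on the third.

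The promoters of 5 members are printed here because 2 known control sequences of chaperone genes were found in them, and the genes that carry them can be followed through the results. RefSeq promoter windows of 300 bases (250 before to 50 after the start of transcription, mouse build GRCm38.p6) were at hand for 65 of the 78 members. The other 13 were not searched: Cct4, Dnajc2, Dnajc5, Dnajc5b, Dnajc11, Dnajc12, Dnajc18, Dnajc30, Hsp90aa1, Hspa8, Hspa9, Hspa13 and Hspb2. The heat shock element, to which heat shock factors bind as trimers, was searched as GAANNTTCNNGAA on both strands. It occurred in 198 of 32851 promoters (0.603%), and the members with it were Dnajb6, Hspd1, Hspe1 and Hsph1. The ER stress element, through which the unfolded protein response acts, was searched as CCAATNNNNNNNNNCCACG on both strands. It occurred in 39 of the same 32851 promoters (0.119%), and the members with it were Dnajc3, Hsp90b1 and Hspa5. The heat shock and ER stress motifs do not overlap one another in the printed windows. Capitals mark the matches, bases are given 5′ to 3′ on the strand of the gene, and a match is a likeness of letters and not a measured binding site.
Hspe1, chr1:55087898-55088197, plus strand: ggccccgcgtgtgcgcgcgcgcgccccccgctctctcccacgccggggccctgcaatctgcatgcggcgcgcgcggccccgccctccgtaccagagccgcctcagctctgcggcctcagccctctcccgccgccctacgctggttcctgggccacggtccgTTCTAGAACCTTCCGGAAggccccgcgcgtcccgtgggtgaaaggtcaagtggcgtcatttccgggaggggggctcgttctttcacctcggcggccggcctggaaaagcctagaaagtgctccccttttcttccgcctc
Hsph1, chr5:149636266-149636565, minus strand: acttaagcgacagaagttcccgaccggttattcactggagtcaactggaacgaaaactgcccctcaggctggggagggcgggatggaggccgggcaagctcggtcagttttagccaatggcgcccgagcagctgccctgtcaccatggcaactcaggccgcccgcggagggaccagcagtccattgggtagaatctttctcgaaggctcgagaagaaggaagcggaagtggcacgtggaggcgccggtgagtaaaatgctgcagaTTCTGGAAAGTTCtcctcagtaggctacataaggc
Hspa5, chr2:34771840-34772139, plus strand: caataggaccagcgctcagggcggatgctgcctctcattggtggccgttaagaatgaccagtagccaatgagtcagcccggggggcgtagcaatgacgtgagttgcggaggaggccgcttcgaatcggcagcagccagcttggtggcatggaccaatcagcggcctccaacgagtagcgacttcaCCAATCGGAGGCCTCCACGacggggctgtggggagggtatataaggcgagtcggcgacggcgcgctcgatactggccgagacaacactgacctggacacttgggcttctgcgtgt
Hsp90b1, chr10:86705395-86705694, minus strand: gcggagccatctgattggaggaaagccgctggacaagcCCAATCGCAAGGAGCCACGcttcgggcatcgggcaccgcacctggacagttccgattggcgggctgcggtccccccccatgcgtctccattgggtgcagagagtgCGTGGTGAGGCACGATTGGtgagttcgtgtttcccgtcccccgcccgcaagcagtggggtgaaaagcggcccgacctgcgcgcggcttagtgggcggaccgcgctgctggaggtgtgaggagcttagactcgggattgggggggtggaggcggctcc
Dnajc3, chr14:118937682-118937981, plus strand: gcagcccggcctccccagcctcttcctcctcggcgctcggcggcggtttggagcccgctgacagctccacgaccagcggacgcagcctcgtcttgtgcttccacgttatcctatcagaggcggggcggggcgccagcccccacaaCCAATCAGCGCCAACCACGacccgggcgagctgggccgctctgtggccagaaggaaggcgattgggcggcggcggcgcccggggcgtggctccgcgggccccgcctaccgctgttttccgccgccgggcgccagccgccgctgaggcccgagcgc
The Hspe1 window lies between Hspe1 and Hspd1, which are transcribed away from each other, and 285 of its bases are also in the Hspd1 window chr1:55087883-55088182 on the minus strand. The capitals in it are 2 overlapping matches, one on each strand, whose first bases lie 89 and 84 bases before the Hspe1 start. In Hsph1 the match lies after the start of transcription. In Hspa5 and Dnajc3 the match begins 65 and 105 bases before the start, and Hsp90b1 has one on each strand, 212 and 107 bases before it.

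Over all cultures, more members were above their naive level than below it early and in blasts, and about as many were above as below it late. In the early window, 34 of 69 members were higher than at 0 h and 8 were lower, beside 20.8% and 22.6% of all 13817 genes tested. In blasts 33 were higher and 14 lower, beside 27% and 24.8% of all genes. In the late window 21 were higher and 16 lower, beside 22.8% and 23.3%. From the blast to the late window 16 members rose and 35 fell, beside 28.3% and 31.8%. The median difference over the 69 members was 0.22 early, 0.14 in blasts and 0.07 late against 0 h, and −0.09 from blast to late, where all genes tested had medians of 0.01, 0.04, 0.02 and −0.01. Calls are limma tests with a Benjamini-Hochberg adjusted p under 0.05 over all genes tested. The arrays of 1 experiment and time deviate together, so p-values of these comparisons over time, which treat them as independent, may be too small. In a comparison of cultures at the same times both sides share this deviation, and its p-values may be too large. The first 3 comparisons share the same 2 naive arrays, so their values are given side by side and not counted as support of one another.

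The time of the highest mean over the cultures was 12 h for 19 of 69 members, 0 h for 11, 6 h and 24 h for 9 each, 3 h and 35 h for 5 each, 96 h and 120 h for 4 each, 48 h for 2 and 73 h for 1. Families differed in this course.

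**Figure D1:**
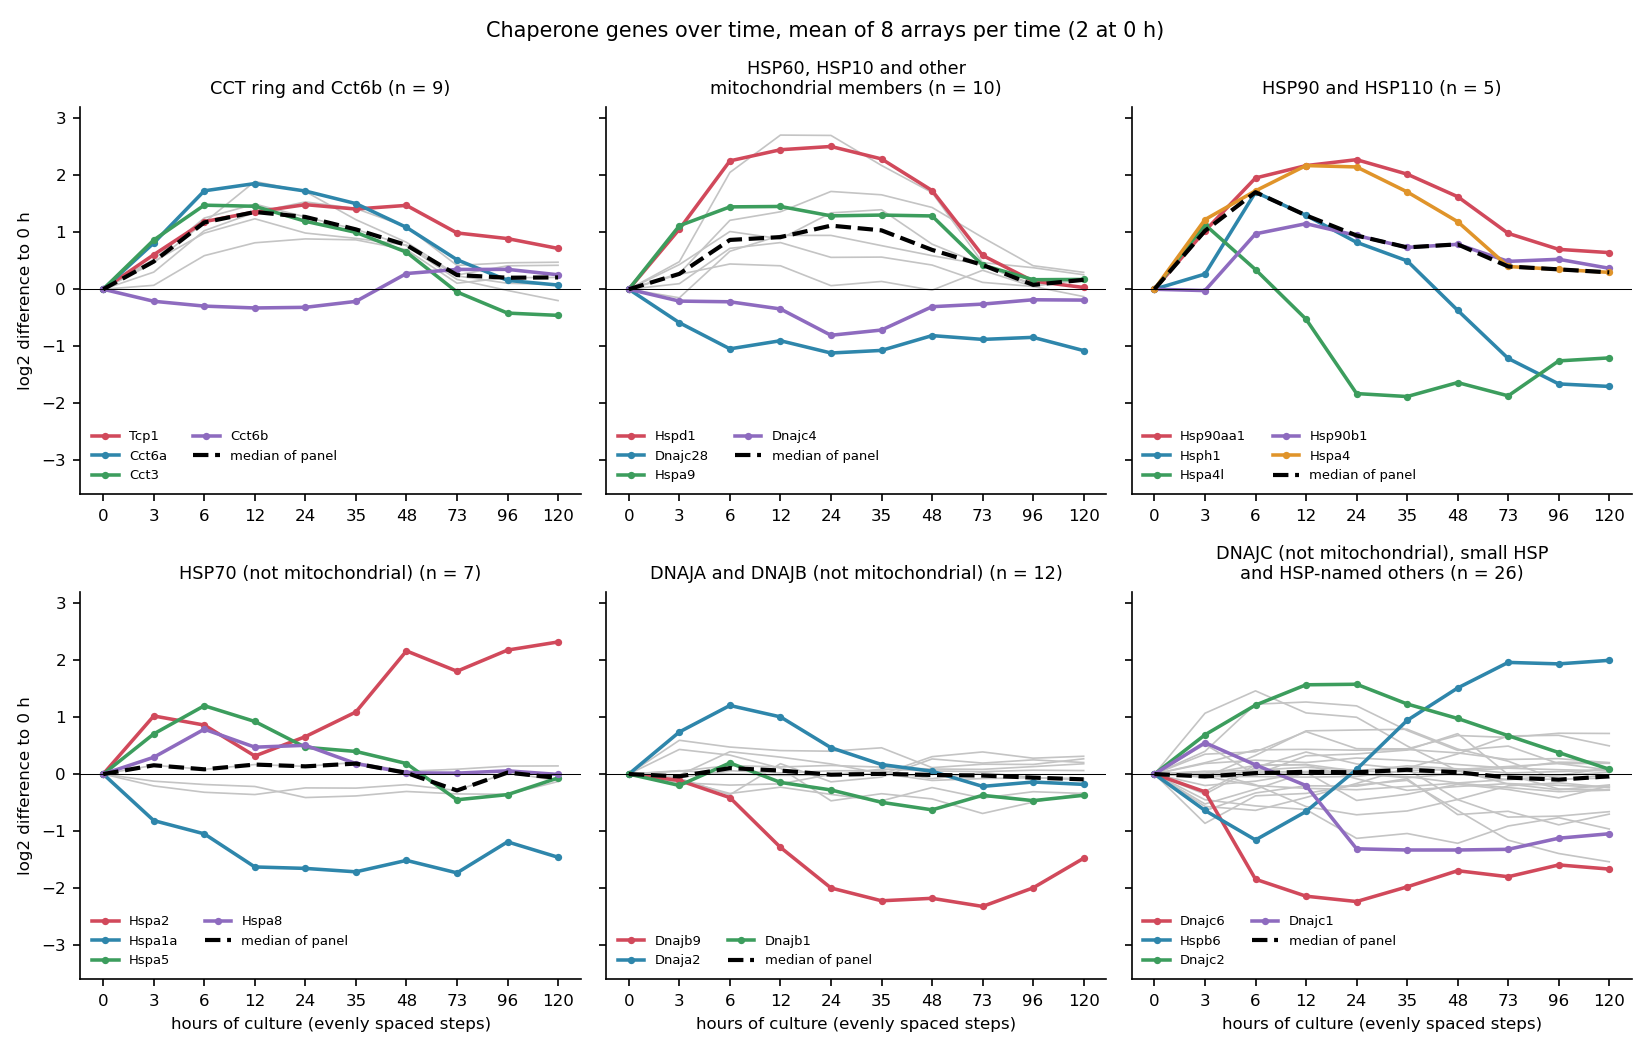
Chaperone genes over time in 6 panels by family and compartment: the mean over the 8 arrays of a time as log2 difference from the 0 h mean (vertical axis) against hours of culture in evenly spaced steps (horizontal axis). Coloured lines are named members, grey lines the other expressed members and the dashed line the median of the panel; the ring subunits, Hspd1 and Hsp90aa1 lie above 0 early and in blasts and come down afterwards, while Hspa2 and Hspb6 are highest late.

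All 8 ring subunits (Tcp1 and Cct2, Cct3, Cct4, Cct5, Cct6a, Cct7 and Cct8) were higher than at 0 h in the early window, with a median difference of 1.07. All 8 were also higher in blasts, with a median of 1.30. Among all genes tested 20.8% were higher early and 27% in blasts. The early call of Cct2 was lost without the naive array of experiment 1 (0.39, limma adjusted p = 0.228). From blast to late all 8 subunits fell, with a median of −0.92, beside 31.8% of all genes. In the late window the median was 0.38, and 4 of them (Cct4, Cct6a, Cct7 and Tcp1) were above 0 h with both naive arrays, beside 22.8% of all genes. Of these calls, Tcp1 alone held with either naive array: without that of experiment 2 Cct4 was at 0.21 (limma adjusted p = 0.238) and Cct6a at 0.35 (limma adjusted p = 0.131), and without that of experiment 1 Cct7 was at 0.46 (limma adjusted p = 0.138). Cct4 and Cct6a also lost the call in a late window of 73 to 120 h. The highest mean came at 6 h for 1 subunit (Cct3), at 12 h for 4 and at 24 h for 3.

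Cct6a, the zeta subunit, read 12.45 and 12.67 on the naive arrays, 13.95 at the lowest, 14.12 at the median and 14.48 at the highest of 16 blast arrays, and 12.36, 12.91 and 13.77 of 32 late arrays. Every blast array lay above both naive arrays and every late array below every blast array. In blasts it was higher than at 0 h by 1.61 (SE 0.13, limma adjusted p = 4.66e-14), and it fell by 1.16 from blast to late (SE 0.05, limma adjusted p = 2.1e-22). Tcp1, the alpha subunit, read 12.35 and 12.69 at 0 h, 13.80, 13.99 and 14.08 in blasts, and 13.07, 13.53 and 14.17 late, so that all late arrays were still above both naive arrays. Its difference from 0 h was 1.45 in blasts (SE 0.09, limma adjusted p = 3.36e-18) and 1.02 late (SE 0.08, limma adjusted p = 1.17e-13). The other subunits gave blast differences from 0.88 (Cct2) to 1.48 (Cct7). Cct5 ranged from 7.78 to 10.76 in the early window, and the highest value is on a 12 h array.

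Cct6b, a second zeta subunit known from testis, ran the other way. It read 6.83 and 7.10 at 0 h, 6.50, 6.70 and 6.95 in blasts and 6.80, 7.29 and 7.91 late. Both naive values lay inside the late range, and the blast range overlapped both other groups. It rose by 0.57 from blast to late (SE 0.05, limma adjusted p = 7.94e-14), at levels close to the expression limit.

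Across the 37 condition means, the 8 ring subunits had a median pairwise Pearson r of 0.846, against 0.103 over all 2346 pairs of expressed members. These points share arrays, normalization and time, so the value is a description. The members whose course was most like the ring's, by mean r with its subunits over the same 37 means, were Hspe1 (0.913), Hspd1 (0.901), Hsp90aa1 (0.899), Dnajc2 (0.878), Hspa4 (0.871) and Dnaja3 (0.858). Dnajc5, a synaptic vesicle co-chaperone, had the lowest value (−0.697).

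The mitochondrial genes Hspd1 and Hspe1 had the largest blast differences of all members. Of 10 mitochondrial members, 8 were higher and 2 lower than at 0 h in the early window, 7 and 2 in blasts, and 5 and 1 late, and from blast to late 2 rose and 7 fell. These counts include Dnajc19, whose probes disagree. Of the 5 higher late, Hspa9 and Dnajc15 held the call with either naive array, and Hspd1, Hspe1 and Dnajc19 did not. Among all genes tested, 20.8% were higher and 22.6% lower early, and 27% and 24.8% in blasts. The late shares were 22.8% and 23.3%, and from blast to late 28.3% rose and 31.8% fell. The median difference of the 10 in blasts was 1.08. Hspd1 (HSP60) read 11.82 and 12.56 at 0 h, 12.90, 14.40 and 14.91 early, 14.22, 14.60 and 14.87 in blasts, and 11.37, 12.73 and 14.12 late. The early and blast arrays were all above both naive arrays, and the late arrays were all below the blast arrays and spread across the naive values. The blast difference was 2.40 (SE 0.17, limma adjusted p = 9.17e-16), or 5.27-fold, and from blast to late it fell by 1.77 (SE 0.07, limma adjusted p = 8.44e-25). By time, its mean went from 12.19 in naive cells to 13.24 after 3 h, 14.44 after 6 h and 14.70 after 24 h, then down to 13.92 by 48 h and 12.22 by 120 h.

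Hspe1 (HSP10), which shares the printed promoter region with Hspd1, read 9.89 and 10.80 at 0 h, 12.08, 12.70 and 13.74 in blasts and 9.98, 10.93 and 12.44 late. Its blast arrays were all above both naive arrays, and its late arrays overlapped both other groups. In blasts it was higher by 2.44 (SE 0.29, limma adjusted p = 1.11e-09), and it fell by 1.74 from blast to late. Over the 37 condition means Hspd1 and Hspe1 had r = 0.952, again a description of points that share arrays. The late rise against 0 h of the pair rests on the naive array chosen: 0.63 for Hspd1 and 0.70 for Hspe1 with both, but 0.25 (limma adjusted p = 0.417) and 0.24 (limma adjusted p = 0.684) without that of experiment 1.

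Hspa9 (mortalin, the mitochondrial HSP70) read 13.26 and 13.27 at 0 h and 14.29, 14.56 and 14.76 in blasts, without overlap. The difference was 1.30 in blasts (limma adjusted p = 5.89e-17) and 0.51 late (limma adjusted p = 1.28e-06). Dnaja3, its J-protein partner in the matrix, gained less, 0.56 in blasts. Dnajc15 and Dnajc19 belong to the motor that pulls proteins through the inner membrane. Dnajc15 read 10.79 and 11.12 at 0 h and 12.43, 12.64 and 12.97 in blasts, a difference of 1.69 (SE 0.11, limma adjusted p = 3.99e-17), and it remained 0.76 above 0 h late. For Dnajc19 the probe used gave 0.86 in blasts, but its probes disagree: with the mean of all its expressed probes the values were −0.15 early, −0.04 in blasts and −0.28 late, so no direction is given for it. Dnajc11, an outer membrane and cristae protein, was higher by 1.37 in blasts. Against these, Dnajc28 and Dnajc4 were lower than at 0 h in blasts by differences of −1.10 and −0.76. Dnajc28 read 7.84 and 8.07 at 0 h and 6.73, 6.84 and 7.13 in blasts, without overlap. Its blast values lie near the expression limit of 6.77, so the size of the fall is uncertain.

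**Figure D2:**
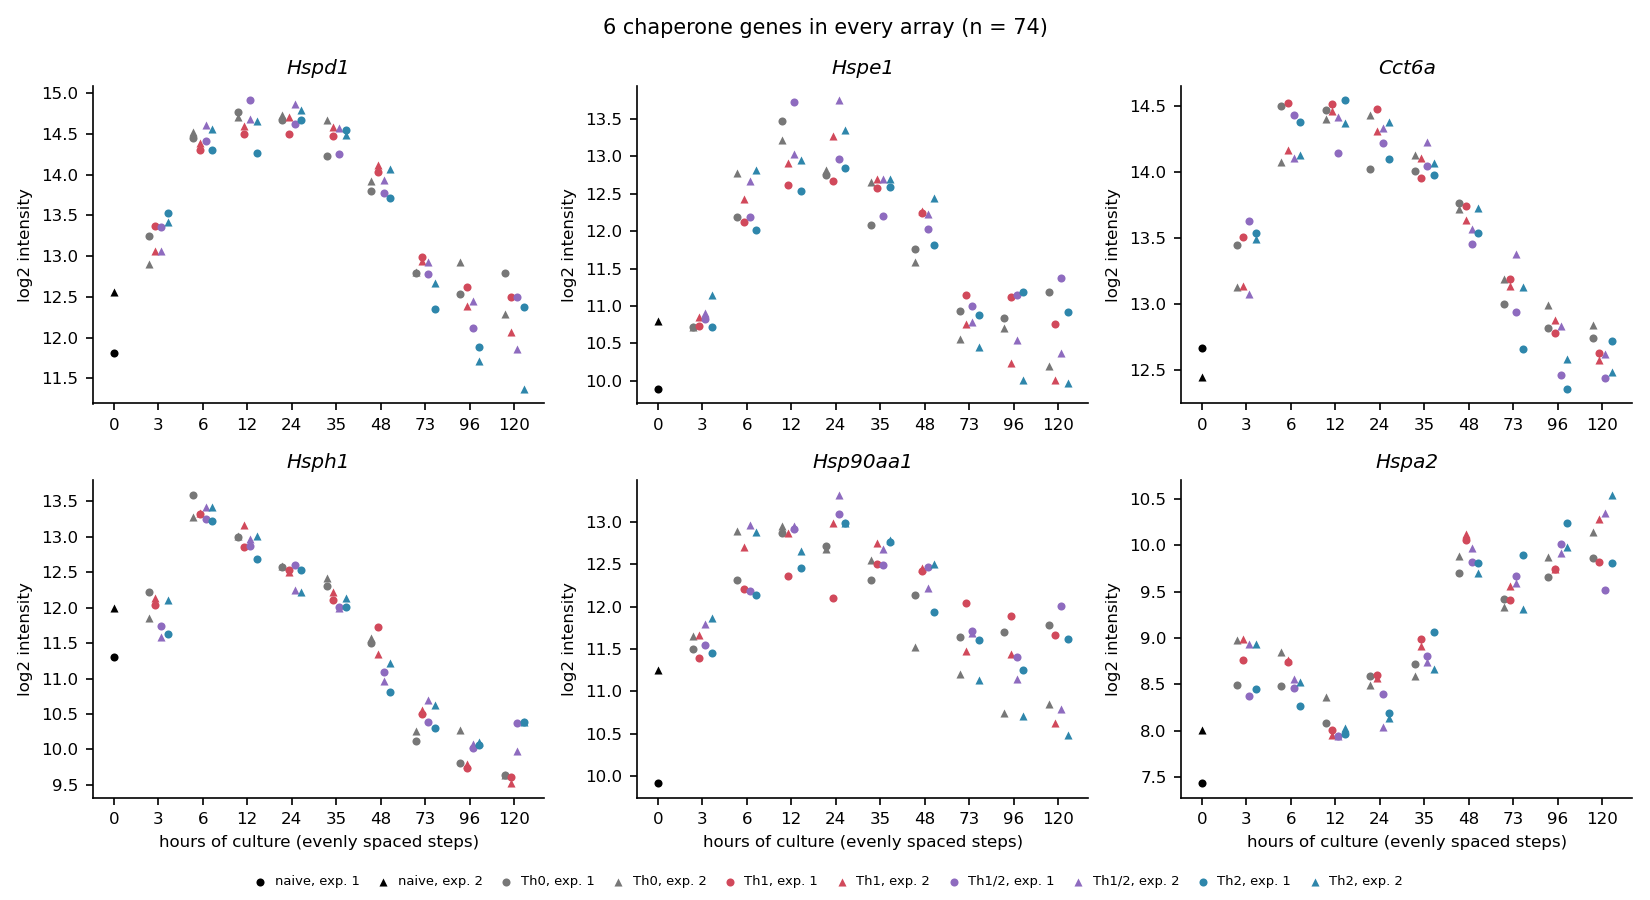
Log2 intensity on each of the 74 arrays (vertical axis) against hours of culture in evenly spaced steps (horizontal axis) for Hspd1, Hspe1, Cct6a, Hsph1, Hsp90aa1 and Hspa2; colour marks the culture, circles are experiment 1 and triangles experiment 2. Hspd1, Hspe1 and Cct6a stand high from 6 to 35 h and come down later, Hsph1 lies below both naive arrays from 73 h on, and Hspa2 is highest from 48 h on.

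Both HSP90 genes on the table were higher than at 0 h early and in blasts, beside 20.8% and 27% of all genes. Their late calls rest on the naive array of experiment 1. Hsp90aa1, the inducible cytosolic form, read 9.91 and 11.26 at 0 h, 12.10, 12.73 and 13.33 in blasts and 10.49, 11.63 and 12.50 late. Every blast array was above both naive arrays, and the late arrays overlapped the higher of them. The difference was 2.15 in blasts (SE 0.30, limma adjusted p = 4.96e-08) and 0.99 late (limma adjusted p = 4.36e-03), and the late value fell to 0.32 (limma adjusted p = 0.585) without the naive array of experiment 1. Hsp90b1, the ER form with ER stress elements in its promoter, was higher by 0.70 early, 0.84 in blasts (SE 0.16, limma adjusted p = 1.84e-05) and 0.54 late, a late value that was 0.48 (limma adjusted p = 0.0858) without the naive array of experiment 1. Hsp90ab1, the constitutive cytosolic form, was not analysed here.

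The 3 HSP110 genes, the nucleotide exchange factors of HSP70, took 3 courses. Hspa4 read 7.81 and 9.001 at 0 h and 9.68, 10.35 and 11.21 in blasts, without overlap, a difference of 1.93 (SE 0.23, limma adjusted p = 8.94e-10), and fell by 1.37 from blast to late. Hsph1, which carries a heat shock element in the printed window, rose early and then went below its starting level. It read 11.31 and 11.99 at 0 h, 13.22, 13.32 and 13.59 on the 8 arrays of 6 h, 11.99, 12.28 and 12.61 in blasts and 9.53, 10.34 and 11.72 late. The 6 h arrays were all above the naive ones and the late arrays all below the blast arrays. The late difference was −1.24 against 0 h (SE 0.13, limma adjusted p = 8.03e-11) and −1.90 against blasts (SE 0.05, limma adjusted p = 1.59e-29), the largest fall among the members. Its mean went from 11.28 at 48 h through 10.43 at 73 h and 9.99 at 96 h to 9.94 at 120 h. The blast difference, 0.66 above 0 h, was 0.32 (limma adjusted p = 0.13) without the naive array of experiment 1. Hspa4l had its highest mean at 3 h (10.77), where the arrays read 10.38, 10.64 and 11.39 beside 8.84 and 10.43 at 0 h. In blasts its arrays read 7.37, 7.81 and 8.24 and did not overlap the naive ones (difference −1.86, SE 0.25, limma adjusted p = 2.14e-08).

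Among 8 expressed HSP70 genes, 4 were higher early (Hspa2, Hspa5, Hspa8 and Hspa9) and none lower, beside 20.8% and 22.6% of all genes. The early call of Hspa2 was lost without the naive array of experiment 1 (0.45, limma adjusted p = 0.119). Hspa8 (HSC70), the constitutive cytosolic HSP70, read 14.71 and 14.82 at 0 h and 14.91, 15.25 and 15.65 early, a difference of 0.52 (SE 0.09, limma adjusted p = 2.34e-06) without overlap. With the mean of its expressed probes this difference was 0.33 and did not pass (limma adjusted p = 0.202). With the probe used it was 0.34 above 0 h in blasts and 0.02 above it late (limma adjusted p = 0.867). Hspa2, best known from male germ cells, rose in the late window. It read 7.44 and 8.01 at 0 h, 8.04, 8.60 and 9.07 in blasts and 9.31, 9.82 and 10.55 late, and all 32 late arrays were above all blast and naive arrays. Its late difference from 0 h was 2.12 (SE 0.16, limma adjusted p = 9.95e-15), and from blasts 1.24 (SE 0.07, limma adjusted p = 4.71e-20). In the small HSP family Hspb6 did likewise, after a dip. It read 8.61 and 8.71 at 0 h, 7.26, 7.54 and 7.67 at 6 h, 8.38, 9.16 and 9.997 in blasts and 9.88, 10.45 and 11.06 late. The early difference was −0.82 (limma adjusted p = 4.85e-06) and the late one 1.85 (SE 0.14, limma adjusted p = 7.48e-15), and it rose by 1.34 from blast to late. Hspb1 (HSP25), a classic stress-induced small HSP, read between 6.74 and 7.54 on all arrays, with a late difference from 0 h of −0.00 (SE 0.10, limma adjusted p = 0.996). These Hspb1 levels lie close to the expression limit.

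Hspa1a and Hspa1b are the stress-induced HSP70 genes. They are near-identical copies, so their probes may share signal and their separate values are uncertain. Hspa1a read 6.41 on the naive array of experiment 1 and 10.18 on that of experiment 2. At 3 h its arrays still fell apart by experiment, 6.52 to 6.95 in experiment 1 and 8.17 to 8.23 in experiment 2, and at 12 h all were at or below 6.78. In the late window it reached 9.51 on the Th2 array at 96 h of experiment 1, where Hspa1b reached 8.72. This is one of the 3 arrays named above as apart. On the Th2 array at 120 h of experiment 1, Hspa1a was also at least 2-fold above the mean of the other cultures. The differences from 0 h, −1.69 in blasts and −1.48 late, passed the test with both naive arrays but were 0.20 (limma adjusted p = 0.817) and 0.41 (limma adjusted p = 0.62) without that of experiment 2, so no direction is given for Hspa1a.

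Several members differed between the naive arrays of the 2 experiments. In experiment 2, 6 of 69 members (8.7%) were at least 2-fold higher and none was 2-fold lower, where 1.39% of all 13817 genes were 2-fold apart, 140 higher and 52 lower. The median gap without sign was 0.211 for the members and 0.144 for all genes. The 6 members were Hspa1a, Dnajb9 (9.71 and 12.93), Hspa4l (8.84 and 10.43), Hsp90aa1 (9.91 and 11.26), Hspa4 (7.81 and 9.001) and Dnajb4 (6.75 and 7.85). With 1 array for each experiment there is no test of this gap. Of the calls against 0 h, those that held with either naive array alone were 28 of 42 early (25 of 34 higher and 3 of 8 lower), 35 of 47 in blasts (27 of 33 and 8 of 14) and 16 of 37 late (7 of 21 and 9 of 16).

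**Figure D3:**
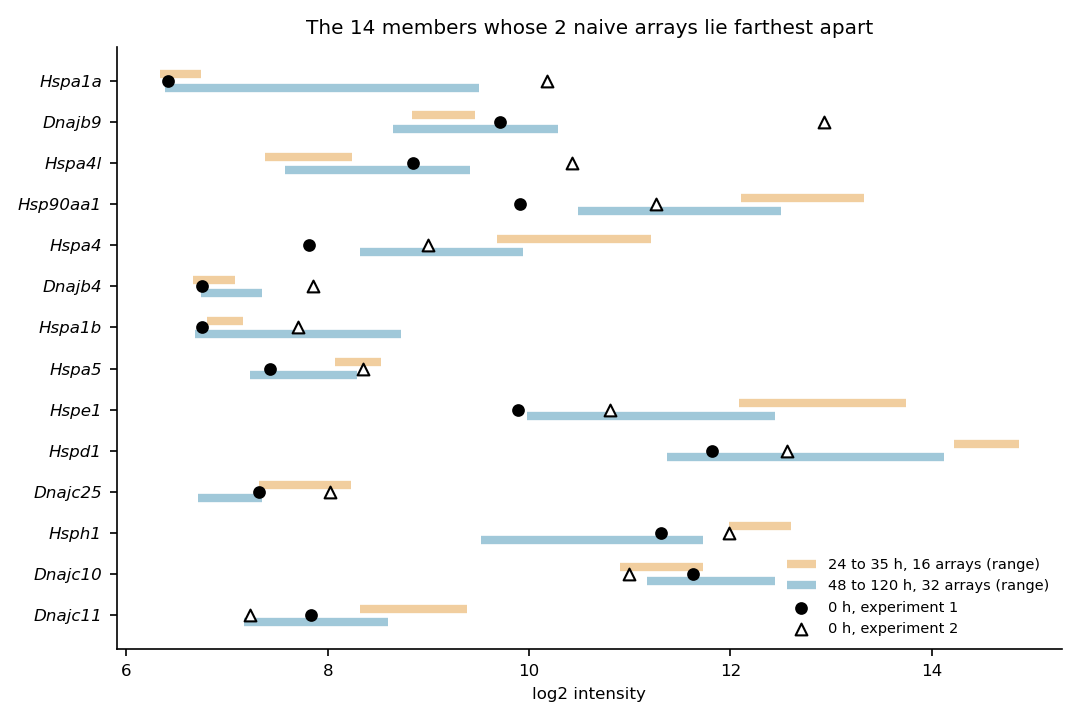
The 14 members whose naive arrays lie farthest apart, on a horizontal axis of log2 intensity: the filled circle is the 0 h array of experiment 1, the open triangle that of experiment 2, and the bars are the range of the 16 blast arrays (orange) and of the 32 late arrays (blue). Hspa1a spans 6.41 to 10.18 and Dnajb9 9.71 to 12.93, with experiment 2 the higher in both and experiment 1 inside or beside the later ranges.

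The J-domain proteins, which choose the clients of HSP70, were called in both directions. All 3 DNAJA genes were higher early, beside 20.8% of all genes, and Dnaja1 was not called in every setting. Dnaja2 read 8.07 and 8.54 at 0 h and 8.88, 9.26 and 9.94 early, without overlap, a difference of 0.98 (SE 0.13, limma adjusted p = 4.19e-08), and its late difference was −0.12 (limma adjusted p = 0.499). Dnaja1 was 0.22 above 0 h early (limma adjusted p = 0.0212) and 0.09 in blasts (limma adjusted p = 0.365), and its early call was lost with a random replicate block (limma adjusted p = 0.0534) and without the naive array of experiment 1 (0.16, limma adjusted p = 0.323). Of 10 expressed DNAJB genes, 2 were higher and none lower early, 1 and 4 in blasts, and 1 and 3 late. When a naive array was left out, the early calls of Dnajb2 and Dnajb6 were lost. So were the blast calls of Dnajb2, Dnajb4, Dnajb6 and Dnajb9, and the late calls of Dnajb9 and Dnajb13. Dnajb1, the main cytosolic HSP40, read 12.44 on both naive arrays and 11.61, 12.00 and 12.38 late, below both, a difference of −0.46 (SE 0.10, limma adjusted p = 2.39e-04). Dnajb6, with a heat shock element in its promoter, was 0.49 above 0 h early and 0.43 in blasts with the probe used. With the mean of its probes these were 0.11 (limma adjusted p = 0.531) and 0.13 (limma adjusted p = 0.394), and without the naive array of experiment 2 they were 0.39 (limma adjusted p = 0.171) and 0.33 (limma adjusted p = 0.239). Its difference of −0.25 from blast to late became 0.00 with the mean of its probes.

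Of 25 DNAJC genes, 9 were higher and 6 lower early, 9 and 7 in blasts, and 6 and 8 late. From blast to late 9 rose and 10 fell. These and the DNAJB counts stand beside 20.8% and 22.6% of all genes early and 27% and 24.8% in blasts. Late the shares of all genes were 22.8% and 23.3%, and from blast to late 28.3% and 31.8%. When a naive array was left out, the early calls of Dnajc3, Dnajc4, Dnajc7, Dnajc10, Dnajc11, Dnajc24 and Dnajc30 were lost. So were the blast calls of Dnajc12 and Dnajc16, and the late calls of Dnajc5, Dnajc8, Dnajc10, Dnajc16, Dnajc19 and Dnajc25. Dnajc2, which assists HSP70 at the ribosome where new chains emerge, read 10.98 and 11.06 at 0 h and 12.10, 12.34 and 12.96 in blasts, without overlap, a difference of 1.40 (SE 0.14, limma adjusted p = 1.44e-11). Dnajc27 was higher early by 1.20 (limma adjusted p = 4.77e-09) and fell by 0.89 from blast to late. Dnajc6 (auxilin), which with HSC70 strips clathrin from vesicles, had the largest early fall (−1.43). It read 9.08 and 9.27 at 0 h, 8.48 to 9.29 at 3 h, 7.10 to 7.65 at 6 h and 6.71, 7.09 and 7.51 in blasts. The blast arrays were all below the naive ones, with a difference of −2.11 (SE 0.12, limma adjusted p = 2.15e-19), and the late difference was −1.69 (limma adjusted p = 1.43e-16). Dnajc7, a co-chaperone that binds both HSP70 and HSP90, was lower in blasts (difference −1.09, limma adjusted p = 8.89e-10), with naive arrays at 12.51 and 13.06 and blast arrays at 11.19, 11.73 and 11.97. Of the HSP-named others, Hspbap1 was below 0 h late (difference −1.18, limma adjusted p = 5.05e-09), and Hspbp1, a nucleotide exchange factor of HSP70, was 0.96 higher early (limma adjusted p = 4.94e-07).

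The ER members were called in both directions. Of 12, 3 were higher and 2 lower early, 3 and 4 in blasts, and 3 and 6 late. From blast to late 5 rose and 4 fell. Among all genes tested the shares were 20.8% higher and 22.6% lower early, 27% and 24.8% in blasts, and 22.8% and 23.3% late. From blast to late, 28.3% of all genes rose and 31.8% fell. When a naive array was left out, the late calls of Hsp90b1, Hspa13, Dnajb9, Dnajc10, Dnajc16 and Dnajc25 were lost. So were the early calls of Dnajc3 and Dnajc10, and the blast calls of Hspa5, Hspa13, Dnajb9 and Dnajc16. The 3 genes with an ER stress element in the printed windows had early differences of 0.94 (Hspa5), 0.70 (Hsp90b1) and −0.39 (Dnajc3), the last of which was −0.18 (limma adjusted p = 0.579) without the naive array of experiment 1. Hspa5 (BiP), the HSP70 of the ER, read 7.43 and 8.35 at 0 h and 8.45, 8.80 and 9.31 early, without overlap (SE 0.13, limma adjusted p = 5.85e-08), with its highest mean, 9.09, at 6 h. Its blast difference of 0.43 was −0.03 (limma adjusted p = 0.909) without the naive array of experiment 1. Dnajc3, an ER J-protein that also restrains the kinase PERK, read 9.30 and 9.73 at 0 h and 8.15, 8.78 and 9.32 late, a difference of −0.74 (SE 0.15, limma adjusted p = 3.90e-05) with a slight overlap. Dnajc10, an ER reductase, had differences of −0.54 early and 0.55 late from 0 h, but the first was −0.22 (limma adjusted p = 0.377) without the naive array of experiment 1 and the second 0.23 (limma adjusted p = 0.324) without that of experiment 2, so no direction is given for it. Dnajc1 was lower in blasts (difference −1.32, limma adjusted p = 9.00e-06). Dnajb9, a target of the unfolded protein response, had a blast difference of −2.11 with both naive arrays, −3.73 without that of experiment 1 and −0.50 (limma adjusted p = 0.157) without that of experiment 2.

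**Figure D4:**
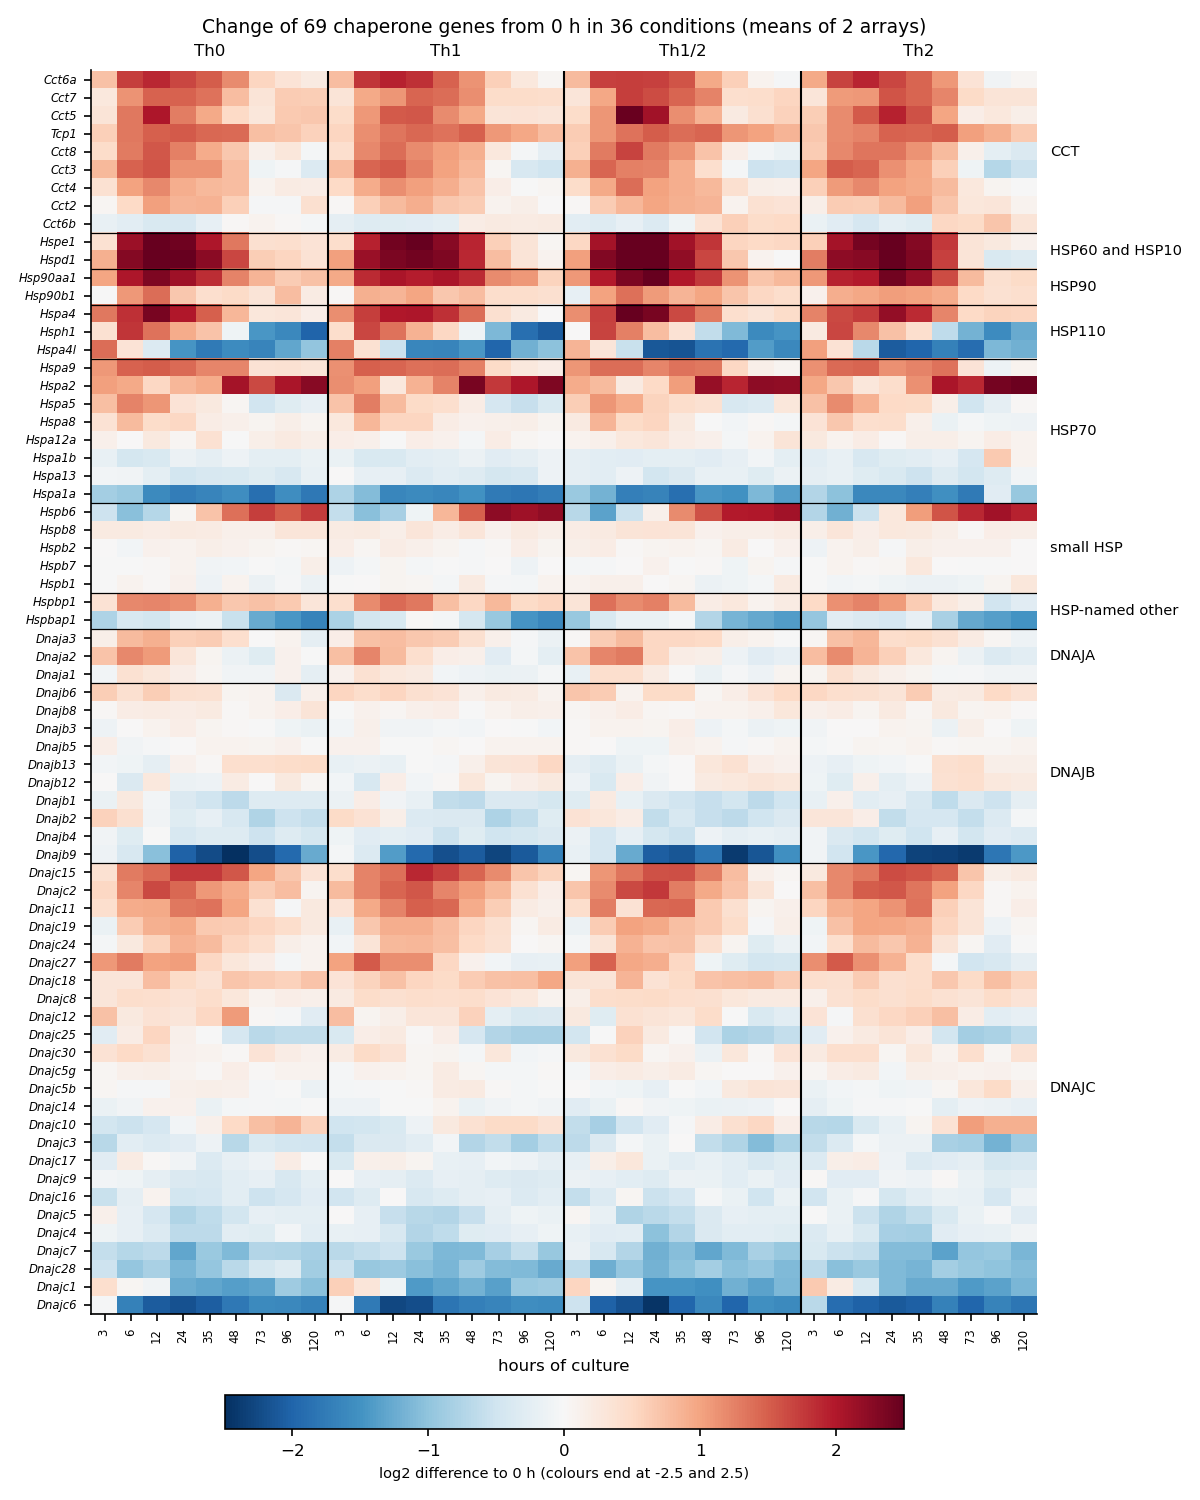
Heat map of the 69 expressed members (rows, by family) over the 36 conditions after 0 h (columns, by culture and time), coloured by log2 intensity minus the 0 h mean; colours end at −2.5 and 2.5. In each of the 4 cultures the CCT ring, Hspd1 and Hspe1 stand high at 6 to 35 h and Hspa2 and Hspb6 from 48 h on.

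The same course was asked of each culture by a rule for kinetic genes: an F-test over the 9 times against 0 h (limma adjusted p under 0.05) and a change of at least 2-fold in 1 direction at 2 consecutive times. It called 27 of 69 members in Th0 and as many, 27, in Th1 and Th2, beside 26.4%, 27.1% and 28.3% of all genes, and 29 members in Th1/2, beside 28.9%. In at least 1 culture 30 members were kinetic, beside 33.4% of all genes, and 24 were in all 4, where 22.5% of all genes were. The members up in all 4 were Cct3, Cct5, Cct6a, Cct7, Cct8, Tcp1, Hspd1, Hspe1, Hspa9, Hsp90aa1, Hspa4, Hspa2, Hspb6, Hspbp1, Dnajc2, Dnajc11, Dnajc15 and Dnajc27, and those down in all 4 were Dnajb9, Dnajc1, Dnajc6, Hspa4l and Hspbap1. All 4 cultures were set against the same naive arrays, so a call in all 4 is not independent support. For Dnajb9 the size of the fall rests on the naive array of experiment 2. Without that array its blast difference, given above, was much smaller and was not called. The split of members up, down and both ways was 21, 5 and 1 in Th0, 21, 7 and 1 in Th1/2, and 19, 7 and 1 in both Th1 and Th2, and Hsph1 was the member that went both ways in each culture. The 6 members that differed between cultures were Cct4, Dnaja2, Dnajc7, Dnajc28, Hsp90b1 and Hspa5, and a gene that is kinetic in some cultures was not tested for a difference between them by this rule.

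Direct comparison of the cultures in the late window (8 arrays each) gave small differences among the members. The number called varied with the pair compared. Th1 minus Th2 gave 5 higher and 4 lower of 69, beside 10.5% and 9.97% of all genes. Th1 minus Th0 gave 2 and 2, beside 2.94% and 2.86%, and Th2 minus Th0 gave 7 and 14, beside 11.1% and 14%. Th1 minus Th1/2 gave 3 and 3, beside 8.41% and 7.32%, and Th2 minus Th1/2 gave 1 and 0, beside 2.33% and 1.79%. These 5 comparisons share cultures. The largest difference, for Hspbp1, was under 1 on the log2 scale. Of the differences named below, those that passed the test in all 20 alternative settings were Hspbp1 between Th2 and both Th1 and Th0, Dnajc28 between Th0 and both Th1 and Th2, Cct6b and Dnajc27 between Th2 and Th0, and Dnajc15 between Th1 and Th1/2. In a fit with experiment and time point as a random replicate block, 15 members were higher in Th1 than in Th2, 5 were lower in Th1 than in Th0, and Th1 minus Th1/2 gave 5 and 5.

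Hspbp1 read 9.69, 10.04 and 10.40 at the lowest, median and highest of the late Th0 arrays, 9.83, 9.96 and 10.35 in Th1, 9.26, 9.59 and 9.81 in Th1/2 and 8.78, 9.24 and 9.80 in Th2. All Th1 arrays were above all Th2 arrays, while Th0 and Th2 overlapped slightly. Th1 was above Th2 by 0.68 (SE 0.10, limma adjusted p = 9.6e-07) and in 8 of 8 pairs of the same time and experiment. Th2 was below Th0 (difference −0.68, limma adjusted p = 7e-07) in all 8 pairs. The pairs, here and below, are repeated times of the same 2 experiments, so they are not 8 independent replicates. Th1 was also 0.40 above Th1/2 (limma adjusted p = 0.003), a call lost without Th1 replicate 2 (0.36, limma adjusted p = 0.0543) or Th1/2 replicate 1 (0.30, limma adjusted p = 0.133).

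The mitochondrial members were lower in Th2 than in Th0 for 5 of 10 (Hspd1, Hspa9, Dnajc15, Dnajc19 and Dnajc28) and higher for none, with a median of −0.13. Among all genes tested 14% were lower and 11.1% higher. Without Th0 replicate 2 the calls of Hspa9 (−0.10, limma adjusted p = 0.353), Dnajc15 (−0.22, limma adjusted p = 0.0825) and Dnajc19 (−0.13, limma adjusted p = 0.319) were lost, and the Hspa9 call held in 10 of 20 settings. Hspd1 had the largest difference, with a late mean of 12.52 in Th2 beside 12.98 in Th0, 12.96 in Th1 and 12.80 for Th1/2 and wide ranges (11.37 to 14.07 in Th2) because its level fell through the window. Th2 was below Th0 by a difference of −0.47 (SE 0.12, limma adjusted p = 0.002) and below Th1 in 8 of 8 pairs (Th1 minus Th2 0.44, limma adjusted p = 0.004). With the mean of its probes these were −0.23 (limma adjusted p = 0.407) and 0.38 (limma adjusted p = 0.131), and without Th1 replicate 1 the second was 0.36 (limma adjusted p = 0.127). Dnajc15 was higher in Th1 than in Th1/2 by 0.41, and than in Th2 by 0.34, where the call was lost without Th1 replicate 1 (0.25, limma adjusted p = 0.0603). Dnajc28 was lower than in Th0 in both Th1 (difference −0.50, SE 0.06) and Th2 (difference −0.39), in 8 of 8 pairs each. Its late arrays ran from 6.61 to 7.77, at the low end near the expression limit. Of the CCT ring, the calls between Th2 and Th0 (Tcp1, Cct3 and Cct6a) were all lost without Th0 replicate 2 or without Th2 replicate 1, so no direction is given for them.

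Some members were higher in Th2. Cct6b read 6.80, 6.99 and 7.26 in late Th0 and 7.19, 7.41 and 7.91 in late Th2, with a difference of 0.47 (SE 0.08) and 8 of 8 pairs. Dnajc10 was higher in Th2 than in Th1/2 by 0.48 in 8 of 8 pairs, and than in Th1 (Th1 minus Th2 −0.37, limma adjusted p = 0.002), but without Th2 replicate 1 neither passed (0.39, limma adjusted p = 0.053, and −0.28, limma adjusted p = 0.0905). Dnajb6 was 0.33 higher in Th2 than in Th0, but by 0.12 in experiment 1 and 0.54 in experiment 2, which holds the Th0 array at 96 h on which Dnajb6 is off, and the call held in 16 of 20 settings. Hspb6 was higher in Th1 than in Th0 by 0.42 (limma adjusted p = 0.003) in 8 of 8 pairs, a call lost without Th1 replicate 2 (0.34, limma adjusted p = 0.138). Dnajc3 and Dnajc27 were lower in Th2 than in Th0, with differences of −0.43 and −0.41, and that of Dnajc3 was −0.31 (limma adjusted p = 0.0634) without Th2 replicate 1.

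**Figure D5:**
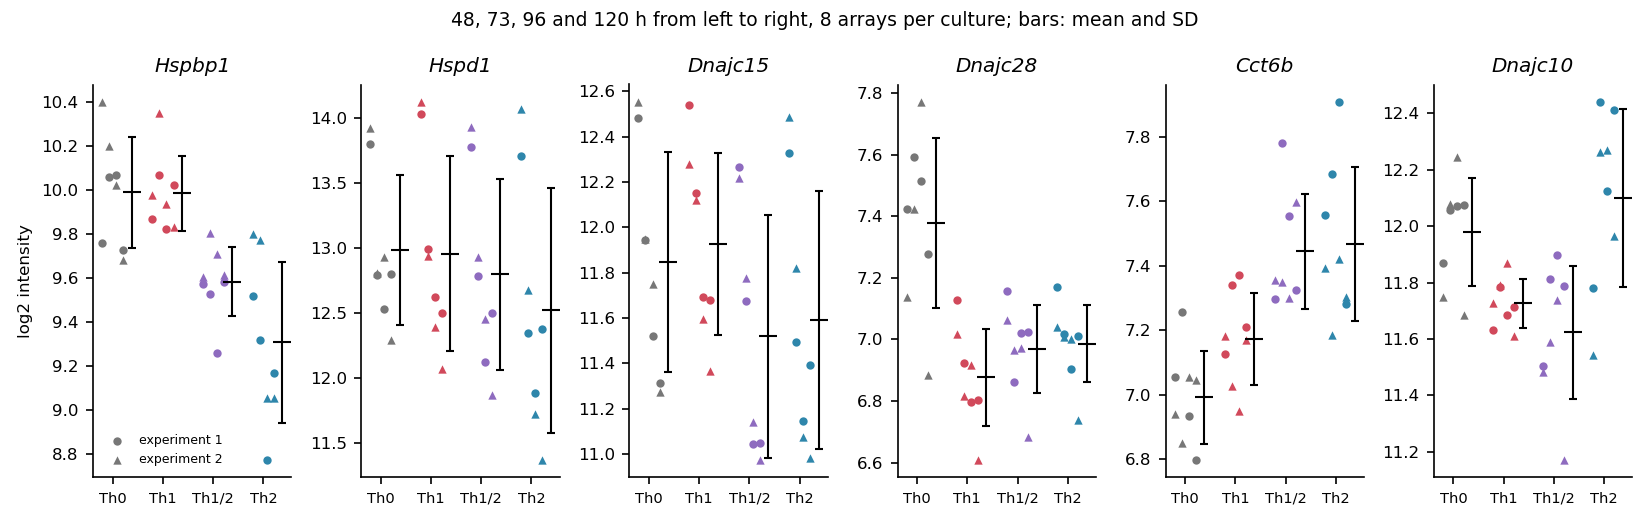
Log2 intensity on the 8 late arrays (48 to 120 h) of each culture for Hspbp1, Hspd1, Dnajc15, Dnajc28, Cct6b and Dnajc10; circles are arrays of experiment 1 and triangles of experiment 2, in order of time from left to right within a culture, and bars give the mean and SD over the 8 arrays. For Hspbp1 the Th1 points, from 9.83 up, lie above all Th2 points, whose highest is 9.80; Hspd1 points spread widely in every culture.

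Before 48 h no member passed the test between Th1 and Th2. Th1 minus Th2 gave no member in either direction in the early window, beside 0.536% and 0.948% of all genes, and none had an unadjusted p under 0.05. In blasts it also gave none by limma after adjustment, beside 1.75% and 1.97%, and 6 had an unadjusted p under 0.05. The differences ran from −0.10 to 0.18 early and from −0.39 to 0.40 in blasts. The change from blast to late differed between Th1 and Th2 for no member upwards and 1 downwards (Dnajc5b), beside 2.42% and 2.54% of all genes, with 7 at an unadjusted p under 0.05.

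Other folding genes were counted the same way in lists of the co-factors. Of 20 expressed co-chaperones of HSP90 and HSP70, 16 were higher and 2 lower than at 0 h in blasts, and from blast to late none rose and 18 fell. St13 and Ppid were higher in blasts by 1.46 and 1.40, Unc45a and Bag3 were lower by differences of −1.39 and −0.93, and Ptges3 (p23) and Ahsa1, both regulators of HSP90, fell by 1.43 and 1.33 from blast to late. Prefoldin hands chains to the CCT ring. Of 13 prefoldin and tubulin cofactor genes, 7 were higher and 1 lower in blasts, and 1 rose and 10 fell later. Pfdn4 was higher by 1.60 in blasts and Pfdn5 lower by a difference of −0.92. Of 15 genes of mitochondrial folding and proteolysis, 10 were higher and 2 lower in blasts, among them Lonp1 (1.58) and Ppif (1.51), and 3 rose and 9 fell later. Of 23 genes of ER folding and the unfolded protein response, 14 were higher and 1 lower in blasts, led by Sdf2l1 (2.56), and 9 rose and 9 fell later. Of 3 heat shock factors, Hsf2 was higher in blasts by 0.92 (limma adjusted p = 1.98e-04) and none was lower, and later 1 rose and 2 fell. These counts stand beside 27% and 24.8% of all genes in blasts and 28.3% and 31.8% from blast to late.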

How the data were processed

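The 74 Illumina Mouse Sentrix-6 bead arrays were hybridised with RNA of T cells from 2 experiments. The authors deposited background-corrected, quantile-normalized intensity values on a linear scale (55.8 to 69892; array medians 107 to 111), which make arrays alike in distribution and hide any change of all genes together. The log2 of these was analysed here in R 4.3.3 with limma 3.58.1, with 1 mean per condition (37), empirical Bayes variances, 37 residual degrees of freedom and Benjamini-Hochberg adjustment over 13817 genes at 0.05. Of 45135 probes, 34773 had 1 gene symbol in the platform annotation, 18 several and 10344 none. Probes with a condition mean above the median of all values were kept (23115), and the brightest by mean over all arrays stood for its gene. The median residual SD was 0.15. No depth is defined for arrays, and their number limits the precision.

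Arrays were grouped by the culture, time and replicate in their labels, and replicate numbers mark the 2 experiments. Within 1 experiment, residuals of arrays of the same time had a median r of 0.536 (54 pairs), against 0.108 over all pairs (666), so experiment and time point were also fitted as a random replicate block. The members and gene lists were chosen with earlier results of these data known. Genes named were a fixed list of well-known chaperones and the 3 members with the largest called difference in each direction, and others named were chosen after their values were seen. The authors' maSigPro regression was replaced by the F-test given in the text. The alternatives were normexp with an offset of 50, centring, mean of probes, 2 other filters, a variance trend, 2 blocks, a fold limit, a shorter late window, and leaving out arrays. The tests were tried on simulated data with known changes and with noise independent between arrays. The shared deviation of arrays of 1 experiment and time was not simulated, so the trial does not cover it. Promoter sequences are RefSeq's, GRCm38.p6. Figures were drawn with matplotlib 3.10.9. Hsp90ab1, Dnajb11 and Dnaja4 were not analysed here.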

Additional observations from a re-analysis of the deposited data

Results flagged for a closer look

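The change from the blast to the late window differed between Th1 and Th2 for Dnajc5b, a relative of the vesicle co-chaperone Dnajc5, by −0.41 (SE 0.09, limma adjusted p = 0.003), a test of the difference itself. Its mean went from 6.85 to 6.77 in Th1 and from 6.62 to 6.96 in Th2, and the value was −0.51 in experiment 1 and −0.31 in experiment 2. These levels lie near the expression limit of 6.77, and the gene was not tested under the stricter filter on dim probes. The call was lost without Th1 replicate 1 (−0.31, limma adjusted p = 0.121), without Th2 replicate 1 (−0.42, limma adjusted p = 0.0654) and without Th2 replicate 2 (−0.41, limma adjusted p = 0.0677).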

How the results depend on the processing

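Of 219 called differences of single members, 192 to 219 kept their direction and call under the settings run on all of them. The fewest were kept without either naive array (192 each), and with experiment as a fixed replicate block all 219 were. With a late window of 73 to 120 h, 118 of 130 were kept. In all, 6 differences from 0 h turned when a naive array was left out. Without that of experiment 1 and of experiment 2, in this order, Hspa1a gave −3.57 and 0.20 in blasts and −3.36 and 0.41 late, Dnajb4 −0.962 and 0.13 in blasts, Dnajc16 −0.55 and 0.0106 late, Hspa5 −0.0291 and 0.90 in blasts, and Hspa4 −0.0375 and 1.15 late. With the mean of all probes of a gene, Dnajc19 gave −0.15 early, −0.0383 in blasts and −0.28 late, and Dnajb6 0.00363 from blast to late. The cause was not tested.

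With the replicate block of experiment and time point as a random effect, 15 members were higher in Th1 than in Th2 late in place of 5, 5 lower in Th1 than in Th0 in place of 2, 5 higher and 5 lower in Th1 than in Th1/2 in place of 3 and 3, 2 lower in Th2 than in Th1/2, 1 higher in Th1 than in Th2 in blasts, and 3 higher and 2 lower for the Th1 against Th2 difference of the change from blast to late. With the fixed block, normexp, centring or the mean of probes the last count was 2 lower in place of 1, and with the stricter filter 0. With the mean of probes, Th1 minus Th2 late had 3 higher, Th1 minus Th0 1 higher and Th2 minus Th0 9 lower. Without the Th1/2 array at 12 h and the Th0 array at 96 h that stand apart, Th1 minus Th0 had 1 higher and 1 lower and Th2 minus Th0 had 4 higher. With the shorter late window, Th1 minus Th0 had 1 lower, Th2 minus Th1/2 1 lower, and the change from blast to late 1 higher and 2 lower.

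With at least 1.5-fold asked as well, the early window had 22 higher and 3 lower, blasts 9 lower, the late window 9 higher, and late minus blast 2 higher and 22 lower. Of the late culture comparisons, Th1 minus Th2 then had 1 higher and 0 lower, Th2 minus Th0 0 higher and 1 lower, and the others and the change from blast to late 0 in each direction. With 1.5-fold in the kinetic rule, 41 members were kinetic in Th1.

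Leaving out the arrays of 1 culture and replicate, or 1 naive array, in turn gave 28 to 35 higher and 6 to 10 lower early, 30 to 33 and 9 to 15 in blasts, 11 to 21 and 10 to 18 late, and 13 to 16 and 34 to 37 from blast to late. It gave 3 to 7 higher and 1 to 4 lower for Th1 minus Th2 late, 0 to 3 and 1 to 4 for Th1 minus Th0, 3 to 7 and 6 to 15 for Th2 minus Th0, 1 to 6 and 0 to 3 for Th1 minus Th1/2, and 0 to 2 higher for Th2 minus Th1/2. Th1 minus Th2 in blasts had 0 to 1 in each direction and the change from blast to late 0 to 2 lower. Kinetic members were 26 to 28 in Th0, 25 to 28 in Th1, 27 to 30 in Th1/2 and 25 to 29 in Th2. Dim probes near the expression limit, such as Cct6b, have little room to fall.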
